A study of Homo sapiens with 6 samples.

Results

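The NF-kB subunits and the IkB proteins that hold them were described here as 10 genes, NFKB1, NFKB2, REL, RELA, RELB, NFKBIA, NFKBIB, NFKBIE, NFKBIZ and BCL3, taken as every probe set annotated to one of them. These were 22 of the 54613 probe sets tested. Of these, 20 carried the symbol of 1 gene only and gave 9 of the 19775 genes a level of their own, while both probe sets of BCL3 are also annotated to the microRNA gene MIR8085 and are described as probe sets. The data are 6 Affymetrix arrays (HG-U133 Plus 2.0) of RNA from 1833 cells, a subline of the human breast cancer line MDA-MB-231 that is known for growing in bone. On 3 arrays the cells carried a vector control, and on 3 they carried S153E-RKIP, a mutant of the Raf kinase inhibitor RKIP named in the series as the more potent Raf-1 blocker. The mutant was brought in with a lentiviral vector. The labels give 1 protocol for all 6 samples, with selection and upkeep in puromycin at 0.5 µg/ml and a medium with 10% serum, and word the puromycin step for the RKIP-expressing cells without naming the control cells. The samples are labelled biological replicates, but nothing says that they came from separate cultures or transductions, so p-values cover only a spread among samples that may be technical. The labels do not say whether the transduced cells are 1 clone or a pool.

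NF-kB factors are dimers built from RELA, RELB, REL and the products of NFKB1 and NFKB2. Classical IkB proteins (from NFKBIA, NFKBIB and NFKBIE) keep the dimers out of the nucleus until IkB kinase marks them for destruction, while the atypical ones (NFKBIZ, BCL3) act on dimers inside the nucleus. NFKBIA is a known target of the factor it inhibits, which makes a negative feedback loop, and MDA-MB-231 cells are known for NF-kB activity without added stimulus.

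All values are log2 RMA signals, a background-corrected and quantile-normalised probe set level, and each difference is the S153E-RKIP mean less the control mean. The introduced gene was not told apart by the brightest of the 3 probe sets of PEBP1, which encodes RKIP. Its level was 11.76 ± 0.026 in control and 11.66 ± 0.064 with S153E-RKIP (SD, n = 3 each). The difference was -0.093 (SE 0.058, limma adjusted p = 0.473). One label of the S153E-RKIP samples, the source name, mentions an shRNA to HMGA2. The brightest of the 9 probe sets of HMGA2 had a difference of -0.023 (SE 0.058, adjusted p = 0.882). The other probe sets of both genes are not given here. Every direction was taken from the title and characteristics of the samples. Whether the data bear out those labels was not tested beyond the brightest probe sets. Pairs of control arrays differed by a mean of 0.094 to 0.10 per gene and pairs of S153E-RKIP arrays by 0.12 to 0.14, with replicate 1 of the latter the farther from the other two. Of 6 genes fixed as usually high in MDA-MB-231, VIM, CD44, CAV1, AXL and KRT18 had control means from 12.23 to 14.47, and SPARC lay below the median level of genes, 6.64. Of 6 fixed as usually low, PGR and CDH1 had control means of 4.02 and 4.14, and the other four 6.60 to 8.30. Of 13 measured blood cell markers none was called by limma (4 had an unadjusted p under 0.05), 12 lay below the median level of genes, and the pan-leukocyte gene PTPRC had a mean of 3.88 in control and 3.98 with S153E-RKIP. The summed level of the 13 was 69.2 to 69.7 in control and 70.2 to 71.5 with S153E-RKIP, and their part in the results was not tested. In such bulk samples more cells with a transcript and more transcript per cell cannot be told apart.

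Among the 9 genes, the atypical IkB gene NFKBIZ and the classical NFKBIA rose on the arrays labelled S153E-RKIP, 2.05-fold and 1.84-fold. No member was called lower. None of the 5 subunit genes passed the test, although REL was 1.49-fold higher (adjusted p = 0.0661). The count of 2 called genes of 9 stands beside 1.9% of all 19775 genes called in either direction with 0.688% called higher and 1.21% lower (limma, Benjamini-Hochberg adjusted p under 0.05). In 7 of the 9 genes all S153E-RKIP arrays lay above all control arrays, which held for 9.31% of all genes. The groups were apart in either direction in 20.1% of all genes. The median difference of the 9 was 0.19, against 0.010 over all genes. By role, 2 of 4 IkB genes and 0 of 5 subunit genes were called, and 2 subunit genes had an unadjusted p under 0.05. The difference between these roles was not tested.

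**Figure D1:**
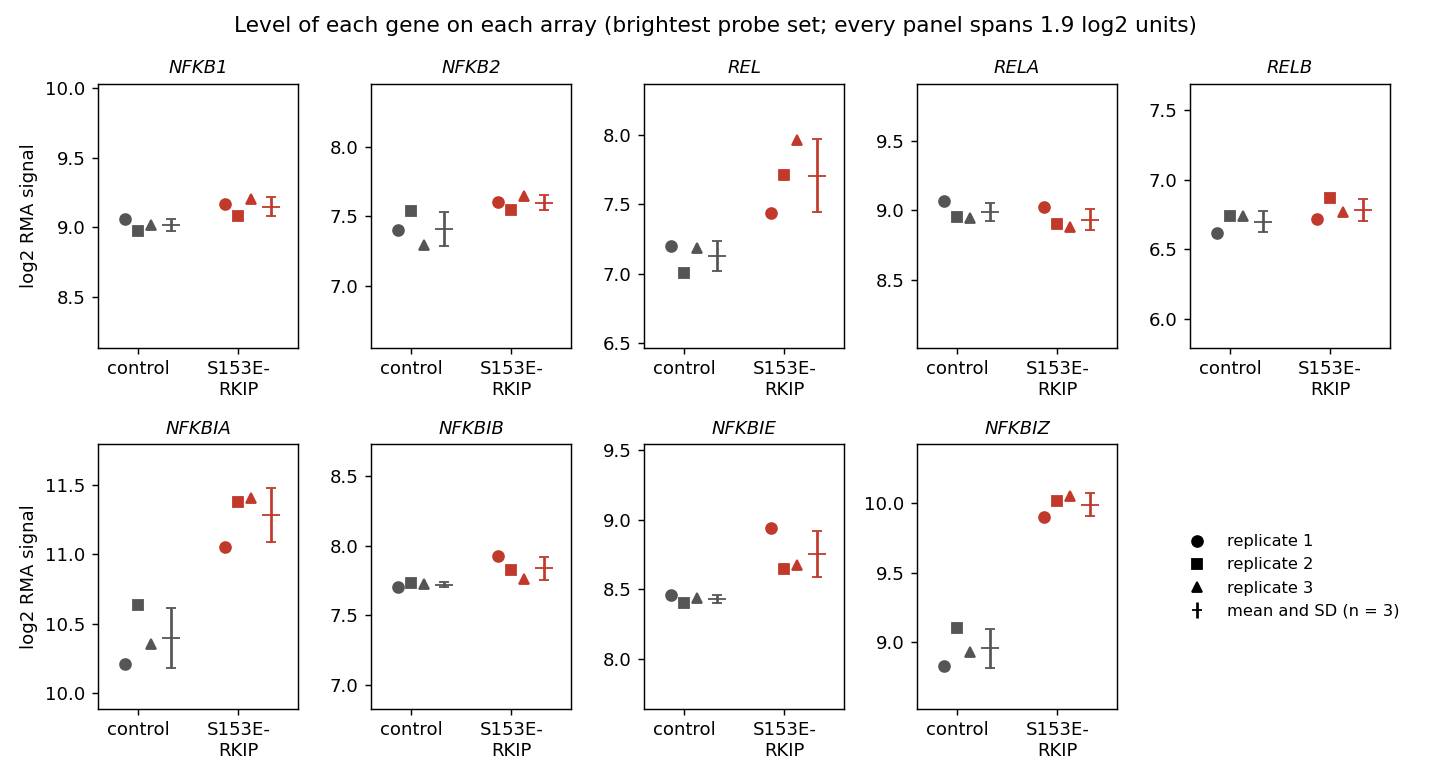
Level of each of the 9 genes on each array, as log2 RMA signal of its brightest probe set, with the mean and SD of 3 arrays beside the points. NFKBIZ, NFKBIA and REL have all S153E-RKIP arrays clear of the controls, while those of RELA and RELB overlap with them.

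The 250 bases before the start sites of these genes are shown because 5 of the members hold the same 10-base kB site there. RefSeq (GRCh38.p14) gave 14 such windows for 8 of the 10 genes, and none was used for RELB and NFKBIE. The kB consensus, searched on both strands with overlapping matches counted, was found in 8 of the 14 windows, and in 9.96% of the 35116 windows of all genes. The 10-base site GGGAATTTCC was singled out after the matches were seen, as the match shared by the most members. It was on either strand in 1 window each of NFKBIZ, NFKBIA, REL, NFKB1 and NFKBIB. Over all genes it was in 50 of the 35116 windows, or 0.142%, which include those of the members. The sharing follows from that choice, and its contrast with all windows is not a separate result. The windows run 5′ to 3′ along the gene, end just before the start site, and have every consensus match in capitals.
NFKBIZ, chr3:101827740-101827989, plus strand: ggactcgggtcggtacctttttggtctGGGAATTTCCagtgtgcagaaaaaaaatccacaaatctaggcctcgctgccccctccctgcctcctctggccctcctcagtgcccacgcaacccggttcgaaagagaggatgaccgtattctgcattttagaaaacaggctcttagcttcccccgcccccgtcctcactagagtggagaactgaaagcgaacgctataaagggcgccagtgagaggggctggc
NFKBIA, chr14:35404750-35404999, minus strand: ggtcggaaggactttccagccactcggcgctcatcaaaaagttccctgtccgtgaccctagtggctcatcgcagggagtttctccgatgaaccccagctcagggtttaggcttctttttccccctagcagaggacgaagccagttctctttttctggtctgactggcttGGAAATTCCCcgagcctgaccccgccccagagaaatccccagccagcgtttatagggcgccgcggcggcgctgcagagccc
REL, chr2:60881324-60881573, plus strand: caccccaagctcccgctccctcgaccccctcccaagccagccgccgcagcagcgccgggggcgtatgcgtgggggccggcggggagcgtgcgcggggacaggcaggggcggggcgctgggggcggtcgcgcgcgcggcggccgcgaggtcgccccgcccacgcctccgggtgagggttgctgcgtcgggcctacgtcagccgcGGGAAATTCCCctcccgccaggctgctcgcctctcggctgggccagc
NFKB1, chr4:102501109-102501358, plus strand: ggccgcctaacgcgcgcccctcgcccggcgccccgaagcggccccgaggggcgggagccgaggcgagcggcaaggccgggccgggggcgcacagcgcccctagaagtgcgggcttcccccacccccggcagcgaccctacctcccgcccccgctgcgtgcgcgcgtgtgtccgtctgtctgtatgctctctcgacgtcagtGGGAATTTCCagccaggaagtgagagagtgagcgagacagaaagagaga
NFKBIB, chr19:38899719-38899968, plus strand: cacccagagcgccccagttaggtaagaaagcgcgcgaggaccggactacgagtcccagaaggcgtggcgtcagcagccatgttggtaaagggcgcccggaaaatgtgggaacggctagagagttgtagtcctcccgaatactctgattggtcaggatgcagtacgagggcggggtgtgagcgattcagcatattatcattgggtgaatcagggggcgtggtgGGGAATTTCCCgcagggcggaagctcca

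The shared site began 223 bases before the start site in NFKBIZ, 81 in NFKBIA, 46 in REL, 49 in NFKB1 and 28 in NFKBIB. In NFKBIA and REL it reads GGGAATTTCC on the opposite strand. In REL and NFKBIB matches on both strands overlap and make a run of 11 capitals. NFKB2 held other matches to the consensus in 2 of its 3 windows, and RELA (2 windows) and BCL3 (1 window) held none. A match is a description of the letters, not evidence of binding. Of the 5 genes that share the site, NFKBIZ and NFKBIA were called, and REL, NFKB1 and NFKBIB were not.

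NFKBIZ encodes IkB-zeta, a nuclear IkB protein that assists NF-kB at a subset of inflammatory genes such as IL6. Its level was 8.83, 9.11 and 8.93 in control replicates 1, 2 and 3, and 9.90, 10.02 and 10.06 in S153E-RKIP replicates 1, 2 and 3. The groups did not overlap, and the lowest S153E-RKIP array lay 0.80 above the highest control array. The difference was 1.04 (95% confidence interval 0.85 to 1.22, SE 0.082, limma adjusted p = 6.53e-04), the 45th largest of the 19775 genes in size. The dimmer probe set of NFKBIZ gave the same picture. It read 7.94, 8.13 and 7.84 in control and 8.91, 8.99 and 9.04 with S153E-RKIP, a difference of 1.01 (SE 0.084, adjusted p = 8.24e-04 over all probe sets). NFKBIZ was called whichever array was left out, with a difference from 0.97 to 1.11.

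NFKBIA encodes IkB-alpha, the inhibitor that is destroyed and remade in each round of NF-kB activity. Its level was 10.21, 10.64 and 10.35 in the control replicates and 11.05, 11.37 and 11.41 in the S153E-RKIP replicates. The groups did not overlap, and the nearest arrays were control replicate 2 and S153E-RKIP replicate 1. The difference was 0.88 (95% confidence interval 0.59 to 1.17, SE 0.13, limma adjusted p = 0.0126), the 68th largest in size. The second probe set of NFKBIA was dim, with a mean of 4.97 over all arrays, and had a difference of 0.081 (SE 0.083, adjusted p = 0.700 over all probe sets). With the mean of both the difference was 0.48, still called. The call was lost without control replicate 1 or 3 (adjusted p = 0.0839 and 0.0797) and without S153E-RKIP replicate 2 or 3 (adjusted p = 0.0933 and 0.0698), with differences from 0.79 to 0.85. Without S153E-RKIP replicate 1 it was 0.99 (adjusted p = 0.0167).

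The other two classical IkB genes did not pass the test. NFKBIE, which encodes IkB-epsilon, read 8.46, 8.40 and 8.44 in control and 8.94, 8.65 and 8.67 with S153E-RKIP. All S153E-RKIP arrays lay above the controls, with replicate 1 the highest of its group. The difference was 0.32 (95% confidence interval 0.13 to 0.52, SE 0.084, adjusted p = 0.120), with an interval above 0 but an adjusted p above the threshold. NFKBIB, which encodes IkB-beta, read 7.70, 7.73 and 7.73 in control and 7.93, 7.83 and 7.76 with S153E-RKIP. Its groups did not overlap either, but the gap between the nearest arrays was 0.027, and the difference was 0.12 (95% confidence interval -0.024 to 0.26, SE 0.062, adjusted p = 0.399). That probe set is of a kind (_x_at) that can pair with several transcripts. The other two probe sets of NFKBIB had differences of 0.053 and 0.092, and their groups overlapped.

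The 2 probe sets annotated to both BCL3 and MIR8085 were not called. BCL3 encodes a nuclear IkB protein that pairs with dimers of the NFKB1 and NFKB2 products. The brighter of the 2 read 5.73, 6.01 and 5.86 in control and 5.75, 6.68 and 6.45 with S153E-RKIP. Replicate 1 of S153E-RKIP lay among the controls and the other two above them, and the difference was 0.43 (95% confidence interval -0.043 to 0.90, SE 0.21, limma adjusted p = 0.415 over all probe sets). Without that replicate the difference was 0.70 (adjusted p = 0.0468), a call that rests on leaving it out. The dimmer probe set had a difference of 0.15 (SE 0.085, adjusted p = 0.476).

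Among the subunits, REL had the largest difference. REL encodes c-Rel, a subunit with a transactivation domain best known from lymphocytes. Its brightest probe set read 7.20, 7.01 and 7.18 in control and 7.44, 7.71 and 7.96 with S153E-RKIP. The groups did not overlap, but the S153E-RKIP arrays spread over 0.52. The difference was 0.58 (95% confidence interval 0.29 to 0.86, SE 0.12, adjusted p = 0.0661), the 155th largest in size. Without S153E-RKIP replicate 1, the lowest of its group, the difference was 0.71 (adjusted p = 0.0254). All 5 probe sets of REL had differences above 0, from 0.045 to 0.58, and 4 had an unadjusted p under 0.05. One of them passed over all probe sets, at a lower level and with a tighter spread. It read 5.28, 5.09 and 5.07 in control and 5.53, 5.51 and 5.60 with S153E-RKIP, a difference of 0.40 (SE 0.074, adjusted p = 0.0479). That call ended whichever array was left out, with adjusted p from 0.0592 (without control replicate 1) to 0.219 (without control replicate 2). With the mean of its 5 probe sets REL had a difference of 0.33 and was called (adjusted p = 0.0416).

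NFKB1 and NFKB2 encode the precursors of the subunits p50 and p52, which lack a transactivation domain of their own. NFKB1 read 9.06, 8.97 and 9.02 in control and 9.17, 9.08 and 9.21 with S153E-RKIP. The groups were apart by 0.020, and the difference was 0.13 (95% confidence interval -0.0041 to 0.27, SE 0.060, adjusted p = 0.330). NFKB2 read 7.40, 7.54 and 7.29 in control and 7.60, 7.54 and 7.65 with S153E-RKIP. Control replicate 2 came within 0.0043 of S153E-RKIP replicate 2, and the difference was 0.19 (95% confidence interval 0.018 to 0.36, SE 0.074, adjusted p = 0.280). The other two probe sets of NFKB2 had differences of 0.21 and 0.068, neither of them called.

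RELA and RELB, the transactivating partners of p50 and p52, overlapped between the groups on their brightest probe sets. RELA read 9.06, 8.95 and 8.95 in control and 9.02, 8.90 and 8.88 with S153E-RKIP, a difference of -0.055 (95% confidence interval -0.20 to 0.095, SE 0.065, adjusted p = 0.716). This was the only difference below 0 among the 9 genes, and it was 0.0048 after quantile normalisation again. The second probe set of RELA had a difference of -0.069 (SE 0.064, adjusted p = 0.668 over all probe sets). It read 8.42, 8.39 and 8.41 in control and 8.38, 8.25 and 8.39 with S153E-RKIP, and was the only member probe set with all S153E-RKIP arrays below all control arrays. RELB read 6.62, 6.74 and 6.74 in control and 6.72, 6.87 and 6.77 with S153E-RKIP. Its difference was 0.083 (95% confidence interval -0.068 to 0.24, SE 0.066, adjusted p = 0.567). The intervals of both genes leave room for changes of up to 0.20 and 0.24 on the log2 scale.

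**Figure D2:**
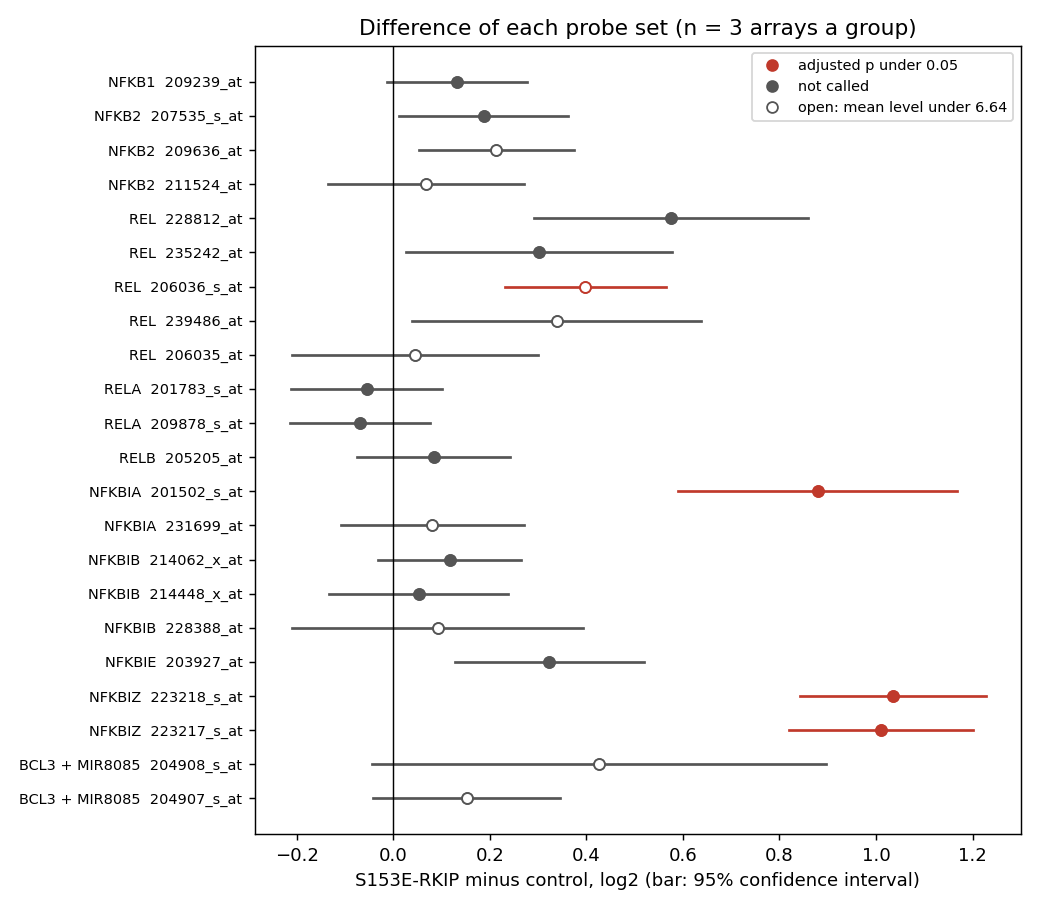
Difference of each of the 22 probe sets with its 95% confidence interval (log2, S153E-RKIP minus control, n = 3 arrays a group), with open points for probe sets whose mean lies under the median level of genes, 6.64. Both probe sets of NFKBIZ stand near 1, those of NFKBIA are split into 0.88 and 0.081, and only those of RELA lie below 0.

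Over all 22 probe sets, 4 were called higher and none lower, where 1.05% of the 54613 probe sets were called in either direction and 0.366% higher. The 4 were both of NFKBIZ, 1 of NFKBIA and 1 of REL. Probe sets of 1 gene read the same transcripts and are not independent. A difference above 0 was found for 20 of the 22. Of the 13 with a mean above the median level of genes 3 were called, and of the 9 below it 1, the probe set of REL described above. Signal over background was not measured for the dim ones. The count of 4 was 2 without control replicate 1 or 3 or without S153E-RKIP replicate 2 or 3.

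**Figure D3:**
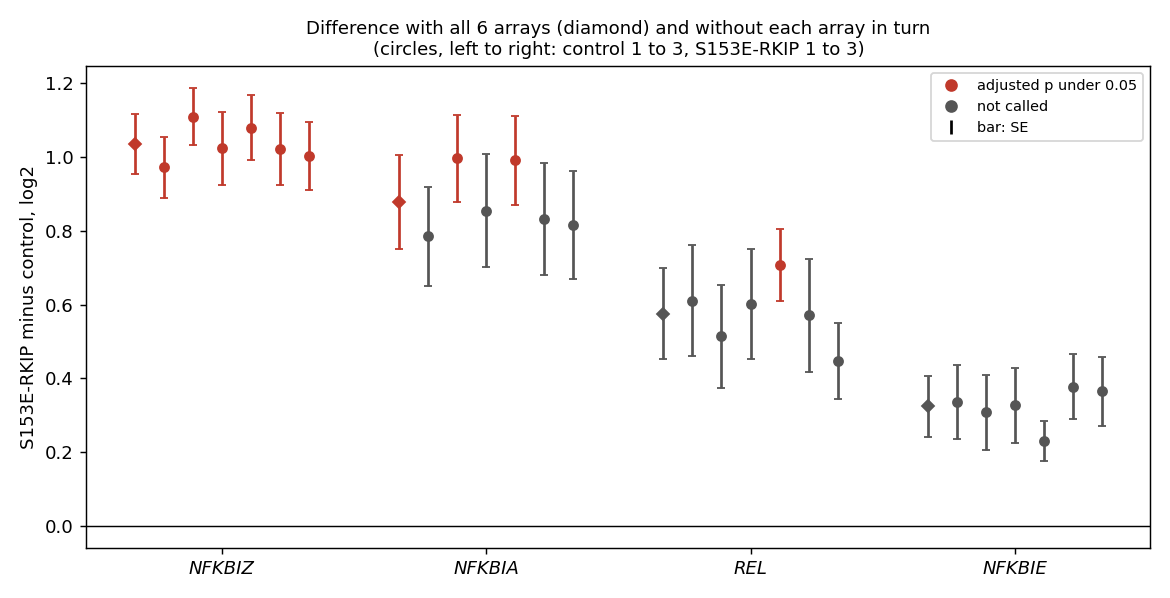
Difference of NFKBIZ, NFKBIA, REL and NFKBIE (log2, S153E-RKIP minus control, bars of 1 SE) with all 6 arrays and without each array in turn. NFKBIZ stays called throughout, NFKBIA is called in 2 of the 6 cases, REL in 1 and NFKBIE in none.

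Over the 6 arrays, the genes outside the set with the profile most like that of NFKBIZ, the member with the largest difference, were GSAP, ICAM1 and CLDN1. Likeness was the root mean square distance between profiles centred on their means, which was 0.075, 0.091 and 0.095 on the log2 scale. ICAM1, which encodes an adhesion molecule for leukocytes, rose by 1.17 (SE 0.11, limma adjusted p = 0.00194) from 8.21 ± 0.23 to 9.38 ± 0.11 (SD, n = 3 each). GSAP, the gamma-secretase activating protein gene, rose by 1.11 (SE 0.071), and CLDN1, a tight junction gene, rose by 1.22 (SE 0.073). In all 3, as in NFKBIZ, the S153E-RKIP arrays lay above all control arrays. They were chosen for their likeness to NFKBIZ over the same arrays. Their rise and separation follow from that choice and are not a separate result.

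The rest of the pathway was then read from the cell surface inward. The counts of each list stand beside 0.688% of all genes called higher and 1.21% called lower. The median of each list stands beside 0.010 over all genes. Of 9 measured ligands that activate NF-kB, 2 rose, 1 fell and 6 did not pass the test, with a median difference of 0.19. IL1A and IL1B, the interleukin-1 genes, rose by 2.99 (SE 0.11) and 2.21 (SE 0.19), and IL18, a cytokine of the same family, fell by 0.70 (SE 0.061). IL1A had a difference of 1.39 with the mean of its 2 probe sets, which leaves no rise on the dimmer one. Without S153E-RKIP replicate 1 the count of ligands that rose was 4. TNF, the classical inducer, had a level of 4.78 ± 0.14 in control and 4.97 ± 0.18 with S153E-RKIP (SD, n = 3 each; adjusted p = 0.416). Of 15 receptors only TLR2, a receptor for bacterial lipopeptides, was called, with a rise of 0.51 (SE 0.081, adjusted p = 0.0197). Its call was lost in 5 of the 6 cases with 1 array left out, and held only without S153E-RKIP replicate 1 (highest adjusted p 0.101, without control replicate 1). The count of receptors that rose was 2 without S153E-RKIP replicate 1.

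Of 19 measured adaptors and ubiquitin ligases 2 rose and 17 did not pass the test, with a median difference of -0.0044. When probe sets were averaged, and under some other alternatives, 1 of the list was called lower. In the main fit IRAK1 had the smallest p among its genes with a negative difference (-0.33, SE 0.071, limma adjusted p = 0.0618). TRAF3, an adaptor that restrains the noncanonical pathway, rose by 0.51 (SE 0.065, adjusted p = 0.00659). TRAF1, a known NF-kB target, rose by 0.40 (SE 0.069, adjusted p = 0.0283). The call of TRAF1 ended when its probe sets were averaged (0.21, adjusted p = 0.114) and in 5 of the 6 cases with 1 array left out, all but that without control replicate 2. Of 11 measured IkB kinases and their activators 1 was called, and the median difference was -0.021. That gene, IKBKE, encodes the inducible IkB kinase epsilon and rose by 0.62 (SE 0.060, adjusted p = 0.00182). The core kinases CHUK and IKBKB had differences of 0.0051 (SE 0.056) and -0.24 (SE 0.097, adjusted p = 0.289). With features above the median level only, or with trend and robust estimation, 1 gene of this list was called lower. In the main fit TAB2, not IKBKB, had the smallest p among its genes with a negative difference (-0.23, SE 0.054, limma adjusted p = 0.0900).

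Of 16 measured negative regulators outside the set 3 rose and 13 did not pass the test, with a median of -0.011. TNFAIP3, the ubiquitin-editing inhibitor A20, rose by 1.00 (SE 0.10, adjusted p = 0.00202), and its partner TNIP1 rose by 0.56 (SE 0.068, adjusted p = 0.00529). TNIP1 rose by 0.34 with the mean of its probe sets. NFKBID, another nuclear IkB gene, rose by 0.30 (SE 0.058, adjusted p = 0.0405). That call ended whichever array was left out (adjusted p from 0.0639, without S153E-RKIP replicate 1, to 0.171, without control replicate 1). It also ended with the replicate block (adjusted p = 0.0797). With the mean of its probe sets NFKBID had a difference of 0.20 (adjusted p = 0.231). Of 23 measured NF-kB target genes, outside these lists and in part known to have risen when the list was written, 12 rose, 0 fell and the other 11 were not called, with a median of 0.48. BCL2A1, CXCL1 and CXCL3, a survival gene and a pair of chemokine genes, had the smallest p and rose by 3.44 (SE 0.085), 2.59 (SE 0.12) and 2.80 (SE 0.14). Between 9 and 14 target genes were called as single arrays were left out. These counts and the median follow in part from the choice of the list.

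**Figure D4:**
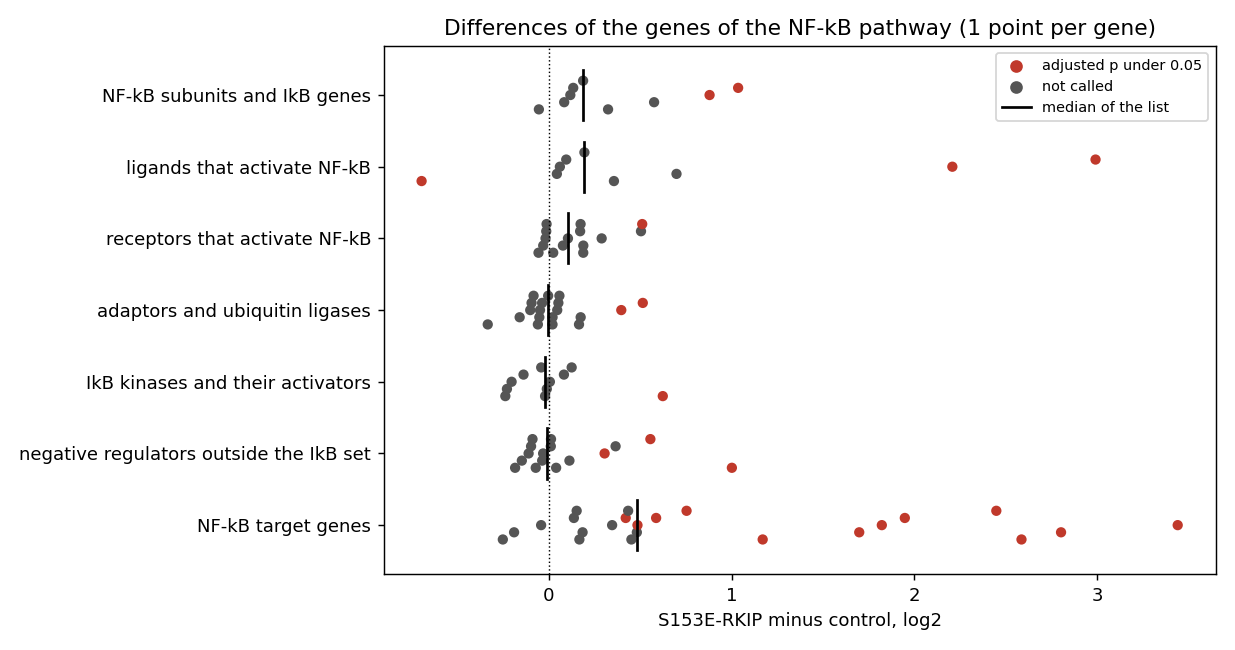
Difference of each measured gene (log2, S153E-RKIP minus control) of the NF-kB subunits and IkB proteins and of 6 other lists of the pathway, with the median of each list as a bar. The medians of adaptors, IkB kinases and negative regulators lie near 0, and that of the target genes at 0.48. The list of target genes was written with some of its rises already known, so its median follows in part from that choice.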

How the data were processed

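Per the submitters' processing notes the deposited log2 values were made by the authors with RMA, whose version is not stated in the notes. They were used as deposited. The labels' protocols name a whole-transcript labelling kit, while the array is a 3' expression array. The 62 control probe sets were left out of the 54675. Symbols came from the platform annotation (41091 probe sets with 1 symbol, of which 41037 matched a reference gene identifier and 0 changed). A gene was represented by its probe set with the highest mean over the 6 arrays.

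Groups were compared with limma 3.58.1 in R 4.3.3 (3 S153E-RKIP against 3 control arrays, lmFit and eBayes, two-sided), with Benjamini-Hochberg adjustment over all genes, or over all probe sets where stated, and calls at an adjusted p under 0.05. Precision is limited by the 6 arrays: a difference had a median standard error of 0.072 over all genes. In data simulated for this comparison over 19775 genes, 19, 39, 49 and 50 of 50 genes changed 1.3-fold, 1.5-fold, 2-fold and 4-fold were recovered, and 8 of 19575 unchanged genes were called.

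The members and lists were chosen with earlier results of these data known. The rule named all members, up to 3 called genes by smallest p in each pathway list, and the 3 profiles nearest to the member with the largest difference. Genes of the lists with no probe set of their own here were not analysed. Alternatives were the average over all probe sets of a gene, no _x_at probe sets, features above the median level only, quantile normalisation again, equal array medians, eBayes with trend and robust estimation, a replicate block, and each array left out in turn. Same-numbered arrays had deviations from their group means that correlated at 0.13, 0.26 and -0.044. For differently numbered arrays the correlations ran from -0.27 to 0.13. The numbers are not known to pair the samples and were not taken as pairs. Figures were drawn with matplotlib 3.10.9.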

Additional observations from a re-analysis of the deposited data

How the results depend on the processing

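Of the 9 genes, NFKBIZ kept its call under all 13 alternatives (0.97 to 1.11), and NFKB1, NFKB2, RELA, RELB, NFKBIB and NFKBIE were not called under any of them. NFKBIA was called under 9 (0.48 to 1.00) and REL under 5 (0.33 to 0.71). REL was called with the mean of its probe sets, with features above the median level only, after quantile normalisation again and with trend and robust estimation (adjusted p = 0.0416, 0.0330, 0.0420 and 0.0210), beside the case without S153E-RKIP replicate 1. No called member changed direction. The count of called members was 2 or 3 under the 7 alternatives that keep all arrays and 1 to 3 as single arrays were left out (1 without control replicate 1 or 3, or S153E-RKIP replicate 2 or 3). For probe sets of the members, 2 to 5 were called as single arrays were left out, against 4 with all. Over all genes 376 were called, 124 (without control replicate 1) to 303 (without S153E-RKIP replicate 1) as single arrays were left out, and 600 with trend and robust estimation. With the replicate block 332 genes, 2 members and 3 of their probe sets were called. It changed no call of a member gene, and ended those of the REL probe set (adjusted p = 0.0751) and of NFKBID. The numbers are not known to pair the samples. Features above the median level left 9887 genes tested. Changes near the median standard error, 0.072, could not be told from none, and much larger ones could be missed. In the simulated data 19 of 50 genes changed 1.3-fold and 39 of 50 changed 1.5-fold were recovered. Their noise was drawn independently for each gene and array, without deviations shared by the genes of an array. REL, with a difference of 0.58 over all 6 arrays, was not called in the main fit.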
